A study of Mus musculus with 18 samples.

Results

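In mouse embryonic stem cells labelled as Mettl3 knockouts, 3500 autosomal regions carried an H3K27ac peak in all 4 knockout libraries and in neither Control library. They were taken from the 39351 autosomal peaks of the H3K27ac list of KO1 replicate 1. A peak of that list was a member when it shared at least 1 base with a peak in KO1 replicate 2, KO2 replicate 1 and KO2 replicate 2 and no base with a peak in Control replicate 1 or 2. The members made up 8.89% of the list. The members were chosen by H3K27ac peaks in these 6 lists, so H3K27ac values at these regions are a description and were not tested, and the word gained stands for the rule and not for a measured change.

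The study compared KO1 and KO2, mouse embryonic stem cells of C57BL/6 background with a Mettl3 knockout, with a Mettl3 Control. All 3 genotypes grew in serum with LIF, the GSK3 inhibitor CHIR99021 and the MEK inhibitor PD0325901, so both inhibitors were also present in Control. Chromatin immunoprecipitation and sequencing of H3K27ac and H3K4me3 gave 2 libraries per genotype and mark, 12 peak lists in all, on mm10. The labels do not say how the knockouts were made, whether a line is 1 clone, or whether the libraries of a genotype came from separate cultures, and a p-value therefore speaks only of variation among libraries, possibly technical.

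H3K27ac, acetylation of lysine 27 of histone H3, marks active promoters and enhancers. H3K4me3, trimethylation of lysine 4, is strongest at the starts of active genes and is weaker, where present, at active enhancers. Mettl3 is the catalytic subunit of the complex that places N6-methyladenosine (m6A) on RNA, including RNA made from enhancers and promoters. In these cells m6A limits the lifetime of transcripts of many pluripotency and developmental genes.

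The number of H3K27ac peaks was 40210 and 39048 in KO1, 65398 and 61383 in KO2, and 29973 and 32957 in Control. H3K4me3 lists were longest in Control, with 69995 and 69320 peaks in KO1, 72303 and 66483 in KO2, and 83644 and 81608 in Control. Read totals are unknown. All 8 embryonic stem cell markers (Pou5f1, Nanog, Sox2, Esrrb, Zfp42, Sall4, Dppa5a and Tdgf1) had an H3K27ac peak within 1 kb of the gene in every library. None of 8 fibroblast markers had one in any library, 0 or 1 of 6 primitive endoderm markers did, and of 5 trophectoderm markers 3 and 2 did in KO1, 3 and 3 in KO2, and 1 and 1 in Control. Peak lists do not show whether the Mettl3 coding sequence was removed. H3K4me3 covered 37.9% and 41.5% of the Mettl3 start with 2 kb on each side in KO1, 48.0% and 44.1% in KO2, and 65.4% and 64.2% in Control, and the nearest gained region lay 25.2 kb away.

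Promoter and miRNA sequences could be read for genes at the gained regions. RefSeq promoters on GRCm38.p6, the assembly of mm10, span 250 bases before to 50 after a gene start. Of these, 110 had at least 150 bases inside a gained region, 75 of protein-coding genes and 35 of long noncoding RNA genes. The 5 shown were chosen after their values were seen, to span poor and rich CpG content. Pttg1 and Lrrn2 are among the 6 gene starts with the largest rises in H3K4me3 described further on. Tmem268 and Mpped2 belonged to the 12 members with the highest H3K27ac ranks, and Lats2 encodes a kinase of the Hippo pathway. Capitals mark each CpG, and sequences run 5′ to 3′ along the gene.
Pttg1, chr11:43425932-43426231, minus strand, 20 CpG: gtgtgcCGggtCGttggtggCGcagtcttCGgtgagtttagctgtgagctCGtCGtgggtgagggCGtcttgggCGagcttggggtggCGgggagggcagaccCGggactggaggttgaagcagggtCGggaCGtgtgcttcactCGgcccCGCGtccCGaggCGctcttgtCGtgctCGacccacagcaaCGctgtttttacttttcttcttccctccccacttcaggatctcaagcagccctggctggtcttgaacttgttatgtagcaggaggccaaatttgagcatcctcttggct
Lrrn2, chr1:132880105-132880404, plus strand, 16 CpG: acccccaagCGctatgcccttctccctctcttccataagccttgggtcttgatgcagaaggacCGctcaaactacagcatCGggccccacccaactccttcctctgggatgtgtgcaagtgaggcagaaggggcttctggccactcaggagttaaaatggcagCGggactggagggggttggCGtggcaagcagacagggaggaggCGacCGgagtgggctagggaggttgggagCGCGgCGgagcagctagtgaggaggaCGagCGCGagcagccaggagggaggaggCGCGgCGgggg
Tmem268, chr4:63558513-63558812, plus strand, 53 CpG: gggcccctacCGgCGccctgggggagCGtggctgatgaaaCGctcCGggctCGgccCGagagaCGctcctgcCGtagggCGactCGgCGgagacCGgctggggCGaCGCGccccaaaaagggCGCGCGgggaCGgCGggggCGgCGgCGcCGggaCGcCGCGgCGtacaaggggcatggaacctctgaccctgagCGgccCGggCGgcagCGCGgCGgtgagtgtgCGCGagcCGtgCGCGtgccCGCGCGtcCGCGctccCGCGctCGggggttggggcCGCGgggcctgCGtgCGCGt
Mpped2, chr2:106694562-106694861, plus strand, 10 CpG: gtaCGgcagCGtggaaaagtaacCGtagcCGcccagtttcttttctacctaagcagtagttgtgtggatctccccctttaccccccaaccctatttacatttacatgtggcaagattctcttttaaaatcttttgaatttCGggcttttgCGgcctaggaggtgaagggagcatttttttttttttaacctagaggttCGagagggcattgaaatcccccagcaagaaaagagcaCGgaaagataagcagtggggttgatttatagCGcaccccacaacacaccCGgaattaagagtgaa
Lats2, chr14:57746074-57746373, minus strand, 37 CpG: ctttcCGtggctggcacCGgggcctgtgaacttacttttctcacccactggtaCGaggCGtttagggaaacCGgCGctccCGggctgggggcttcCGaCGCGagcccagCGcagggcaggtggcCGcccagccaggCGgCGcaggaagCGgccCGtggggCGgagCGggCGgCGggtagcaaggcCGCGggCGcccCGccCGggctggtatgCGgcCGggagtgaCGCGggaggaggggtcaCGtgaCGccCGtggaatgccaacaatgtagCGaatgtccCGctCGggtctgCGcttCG

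Promoters inside gained regions held fewer CpG than promoters inside regions common to all 6 H3K27ac lists, and more than promoters at large. The median was 17 CpG per 300 bases in the 110 promoters of gained regions, 26 in 1973 promoters of common regions and 7 in all 31365 autosomal promoters of the table. Under 10 CpG were found in 27.3% of promoters of gained regions, 9.88% of promoters of common regions and 56.1% of all. Median GC content was 59.3%, 64.3% and 53% in the same order. No test was run on these shares, and a motif match describes letters only.

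Motifs were searched on both strands of the 300 bases. The E-box CACGTG was found in 13.6% of promoters of gained regions, 11.2% of promoters of common regions and 7.14% of all autosomal promoters. CGCGCG was found in 25.5%, 27.7% and 11.5% of the same sets. The Tead motif GGAATG was found in 10.9%, 11% and 14.6%, the AP-1 motif TGANTCA in 6.36%, 4.0% and 7.85%, and the Klf and Sp-like motif GGGTGGGG in 10.0%, 10.3% and 10.0%. TTCCNGGAA (Stat) was in 2.73%, 1.17% and 1.18%, and ATGCAAAT (octamer) in 0.909%, 0.558% and 1.75%. CTTTGAT (Tcf and Lef) and TCAAGGTCA (Esrrb) were in 0% of promoters of gained regions, against 1.88% and 0.101% of promoters of common regions and 3.76% and 0.418% of all. Of the promoters shown, Lats2 held the Tead motif and the E-box, Lrrn2 the Klf and Sp-like motif and Tmem268 CGCGCG. Pttg1 and Mpped2 held none of the 9 motifs in this window.

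The hairpins of 3 miRNA genes overlapped a gained region: Mir200c, Mir130a and Mir8098. They were looked up after the regions were known. Mature sequences are shown for miR-200c, for miR-130a and for miR-141, which neighbours miR-200c. The miR-200 family is known for holding cells in an epithelial state by repressing Zeb1 and Zeb2. Capitals mark the seed, bases 2 to 8, which pairs with targets, and all 4 lie on the minus strand (RefSeq, GRCm38.p6).
miR-200c-3p, chr6:124718324-124718346: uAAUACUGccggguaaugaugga
miR-200c-5p, chr6:124718365-124718386: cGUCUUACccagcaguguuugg
miR-141-3p, chr6:124717917-124717938: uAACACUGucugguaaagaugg
miR-130a-3p, chr2:84741116-84741137: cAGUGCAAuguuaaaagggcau

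The seeds of miR-200c-3p (AAUACUG) and miR-141-3p (AACACUG) differ in sequence, and no 2 of the 4 share a seed. The gained region over Mir200c was 246 bp wide (chromosome 6, 124718258 to 124718503), between genes and 146 bp from a Control peak, and Mir141 lay 272 bp from it. The authors' fold enrichment there was 5.67 and 4.96 in the KO1 lists and 8.73 and 6.69 in the KO2 lists. H3K4me3 covered 86.7% and 85.0% of that region with 1 kb on each side in KO1, 97.4% and 87.3% in KO2, and 100% and 66.7% in Control, so the groups overlapped. At Mir130a the 236-bp region (chromosome 2, 84741043 to 84741278) had folds of 4.58 and 7.12 in KO1 and 28.0 and 19.8 in KO2. There the coverage by H3K4me3 was 93.0% and 86.9% in KO1, 76.2% and 72.3% in KO2, and 94.0% and 92.7% in Control. In KO2 both libraries were lower than in the other genotypes. The difference at Mir130a, a region named by Ypel4, was -19.1 points for KO2 against Control, which passed the threshold (limma adjusted p = 0.0321). For both lines together it was -11.2 points and did not pass (limma adjusted p = 0.0924).

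Gained regions were narrow and of modest H3K27ac enrichment. Their median width was 271.5 bp (150 to 1626), against 578 bp in the 18007 peaks that met a peak in all 5 other H3K27ac lists, called common regions here, and 348 bp in the whole list. The median fold enrichment that the authors gave was 5.07 and 5.33 in the KO1 lists and 6.87 and 6.71 in the KO2 lists. Common regions had 7.69 and 7.79 in KO1 and 11 and 11 in KO2. Within its own list, the median gained region stood at the 37.8 and 39.6 percentile of fold in KO1 and at the 67.2 and 63.4 percentile in KO2. The KO2 lists were longer, so these ranks do not compare the lines.

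Many gained regions lay beside H3K27ac that Control also had. The nearest Control peak was at a median of 831.5 bp, and 1828 regions (52.2%) had one within 1 kb. Between 1 and 5 kb from a Control peak lay 450 regions, between 5 and 50 kb 847, and beyond 50 kb 375 (10.7%). Another 4354 peaks of the list met all knockout lists and 1 of the 2 Control lists, so they narrowly missed the rule. When the same number of peaks was taken from each of the 6 H3K27ac lists, those with the lowest p, the rule found 1149 regions, and with no Control peak within 1 kb as well it found 558. With no Control peak within 1 kb and the lists as deposited it found 1672.

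**Figure D1:**
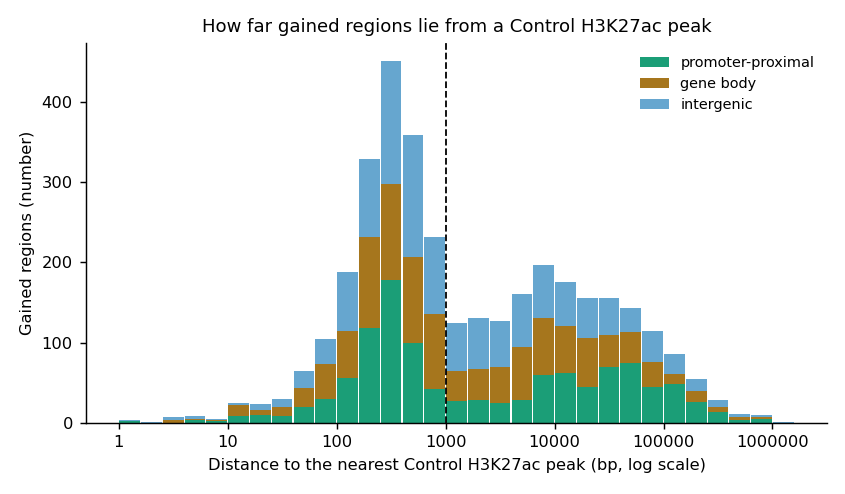
Number of gained regions by distance in bp (log scale) to the nearest Control H3K27ac peak, stacked by position relative to genes; the dashed line marks 1 kb. Of 3500 regions 1828 lie left of the line, and 375 lie beyond 50 kb.

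At the edge of the rule, close members lay 1 bp from a Control peak near Cacybp and Tpm3 and 2 bp near Olfr1425. Just outside it, peaks near Xrn2 and a second one near Tpm3 shared 1 base with a Control peak, and peaks near Cxxc5 and Tnrc6c shared 2. The members farthest from a Control peak were named by Gm44812 at 1200950 bp, Basp1 at 969032 bp, Rab38 at 877893 bp and Fat3 at 858913 bp. Rab38, a small GTPase of pigment vesicles, had its gained region at its start, while the region named by Basp1 lay 1077814 bp from that gene.

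The 12 members whose lowest rank over the 4 knockout lists was highest were named by Fam229a, Cmc1, Mpped2, LOC108167368, Ext1, Cwc15, Cdc25a, Tmem268, Vwa8, Nanp, Atp6v1b2 and Adamts9. At 8 of these the region lay within 2.5 kb of a gene start. The region near Fam229a (chromosome 4, 129501003 to 129501264) had folds of 10.2 and 10.9 in KO1 and 13.4 and 10.4 in KO2. Cmc1, a factor of cytochrome oxidase assembly, had 10.6 and 8.78 in KO1 and 11.2 and 11 in KO2 at its start (chromosome 9, 118149806 to 118150055), and the nearest Control peak was 108745 bp away. Such isolated starts were found also at Cwc15, a spliceosome protein, at 113221 bp, at Vwa8 at 115914 bp and at Adamts9, a secreted metalloprotease, at 99894 bp. At the start of Mpped2 and of Tmem268 a Control peak lay 64 and 93 bp away. H3K4me3 covered the Cmc1, Vwa8 and Adamts9 regions in all 6 H3K4me3 libraries, and none of the 12 passed the threshold for H3K4me3 around it, for both lines or for either line alone.

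The 6 widest members were named by Clhc1 (1626 bp), Fads1 (1530 bp), Ren1 (1355 bp), Mok (1197 bp), Epcam (1142 bp) and Stk3 (1062 bp). Ren1 encodes renin and Stk3 the Hippo kinase Mst2. All but Mok lay between genes. The Epcam region (chromosome 17, 87590657 to 87591798) had folds of 12.8 and 7.56 in KO1 and 11 and 11.2 in KO2, the highest fold of any member in KO1 replicate 1. Epcam encodes an adhesion molecule of epithelia and embryonic stem cells, and its start is 44.2 kb away.

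Relative to genes, gained regions lay away from starts more often than common regions did. Promoter-proximal here means within 2.5 kb of the start of a protein-coding gene, or of a gene end where no start was given. This held for 1137 gained regions (32.5%), while 1120 (32.0%) lay in gene bodies and 1243 (35.5%) between genes. The shares were 46.7%, 24.1% and 29.2% in common regions and 35.6%, 30.6% and 33.8% in the whole list. The median distance to a gene start was 9451.5 bp for gained regions, 4030 bp for common regions and 9071 bp for the whole list, so gained regions resembled the whole list more than they did the common regions.

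Chromosomes differed in how much of their H3K27ac was gained. The share was highest on chromosome 19 (154 regions, 12.8% of that chromosome's list) and chromosome 11 (429 regions, 11.4%) and lowest on chromosome 8 (100 regions, 4.96%) and chromosome 4 (124 regions, 5.69%), against 8.89% over all autosomes. On chromosomes 8 and 11 the authors' fold at like p also differed between genotypes. The median fold of peaks with −log10 p of 6 to 8, divided by that over the other autosomes, was on chromosome 11 0.937 and 0.946 in KO1, 0.957 and 0.982 in KO2, and 0.999 and 0.996 in Control. On chromosome 8 it was 1.02 and 1.01 in KO1, 0.985 and 1.01 in KO2, and 0.910 and 0.942 in Control. The part of this difference in the number of gained regions was not tested. Without these 2 chromosomes 2971 regions remained.

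**Figure D2:**
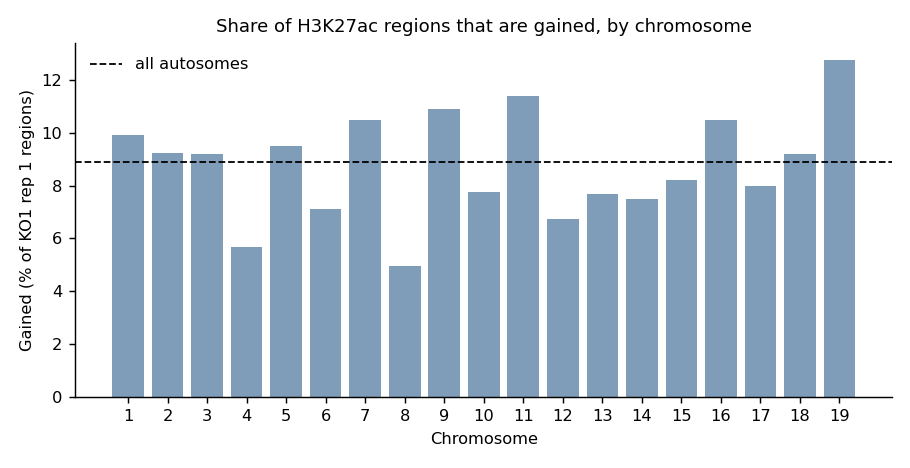
Gained regions as a percentage of the KO1 replicate 1 H3K27ac regions of each autosome (bars); the dashed line is the share over all autosomes, 8.89%. Chromosomes 19 and 11 stand highest at 12.8% and 11.4%, and chromosome 8 lowest at 4.96%.

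The gained regions named 2466 protein-coding genes as nearest, which is 11.9% of the 20665 autosomal ones and 22.8% of the 10796 genes nearest to any region of the list. Of these, 1835 had 1 gained region and 232 had 3 or more. Grouped within 12.5 kb, the regions formed 2787 clusters, of which 2285 were single regions and 147 held 3 or more, 505 regions in all. For 813 regions the naming gene had no start in the tables, chromosome 18 included, and distance was taken to the gene itself.

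Gpr37l1, an orphan receptor of the G protein-coupled family, had the most, 9 regions over 20.5 kb of chromosome 1 (135174820 to 135195333), 7.14 to 27.5 kb from its start. Akap12, a scaffold of protein kinase A, Ctif, a factor of cap-binding translation, Helz, an RNA helicase, and Tns3, a tensin of focal adhesions, had 8 each. Adam19, a membrane metalloprotease, and Rab11fip4, a Rab11 effector, had 7, as did Rybp, of Polycomb complexes. At Gpr37l1 the mean H3K4me3 coverage around the 9 regions was 44.9% and 36.1% in KO1, 46.0% and 33.7% in KO2, and 10.3% and 12.4% in Control. All knockout libraries were above both Control libraries there. The 8 tested regions differed by 16.3 to 47.9 points, and none passed the threshold for both lines together, while 2 rose for KO2 alone.

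The other genes with many regions showed no single direction. At Tns3 the mean coverage was 56.7% and 55.3% in KO1, 78.5% and 55.5% in KO2, and 72.9% and 69.2% in Control, and 1 of 8 regions fell. At Akap12 1 region rose and 1 fell, and the riser lay inside Mthfd1l (36.8% and 62.4% in KO1, 50.9% and 61.0% in KO2, and 12% and 5.32% in Control). At Ctif 2 of 8 regions rose for both lines together. One of them had 34.8% and 32.0% in KO1, 34.2% and 44.8% in KO2, and 0% and 0% in Control. The other Ctif region had 0% and 7.02% in KO1, 74.2% and 62.8% in KO2, and 0% and 0% in Control, so that KO1 was close to Control and KO2 was not. For KO2 alone 5 of the 8 Ctif regions rose, and 2 were higher in KO2 than in KO1. No region of Helz or Adam19 passed for both lines or for either line alone, and 1 region of Rab11fip4 rose for KO2 alone.

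Of 28 naive pluripotency genes, 15 (53.6%) were nearest to a gained region. The lists below were chosen with earlier results of these data known, and a gene with more H3K27ac around it can be named more often, so shares stand beside 11.9% of all coding genes and 22.8% of genes nearest to any region. The 15 were named by 27 regions: Klf2 and Mycn by 4 each, Nr5a2 and Tbx3 by 3, Fgf4 and Sox2 by 2, and Dppa4, Dppa5a, Klf4, Nanog, Pou5f1, Prdm14, Sall4, Tfcp2l1 and Utf1 by 1. Only 5 of the 27 were promoter-proximal, and 27 of the 28 genes were nearest to some region of the list. Fgf4, the growth factor that primes embryonic stem cells for differentiation, had a region 11.5 kb from its start with folds of 7.70 and 6.69 in KO1 and 7.50 and 8.77 in KO2. Around it, H3K4me3 coverage was 20.9% and 27.1% in KO1, 41.0% and 25.8% in KO2, and 14.0% and 0% in Control. The groups did not overlap, but the difference of 21.7 points missed the threshold (limma adjusted p = 0.127). At the other Fgf4 region, 6.24 kb from the start, coverage was 68.1% and 21.7% in KO1, 78.9% and 36.3% in KO2, and 72.5% and 78.6% in Control, so the groups overlapped. None of the 23 tested regions of this list passed for both lines together or for KO1, and 1 region each of Sall4 and Tbx3 rose for KO2 alone.

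Formative and primed genes, which rise as cells leave the naive state, gave 8 of 16 genes and 16 regions: Foxd3, Otx2 and Tcf15 by 3 each, Etv5 and Pou3f1 by 2, and Dnmt3a, Lef1 and Sox4 by 1. The region 7.71 kb from the start of Otx2, a homeobox factor of the epiblast, had H3K4me3 coverage of 71.7% and 85.6% in KO1, 32.9% and 41.5% in KO2, and 57.6% and 51.4% in Control. KO1 stood above Control and KO2 below it, and the difference of KO2 from KO1 was -41.5 points, which missed the threshold (limma adjusted p = 0.0519). Of the lineage lists the named genes were 2 of 15 mesoderm and endoderm genes (Eomes and Gsc), 2 of 16 primitive endoderm genes (Sparc by 6 regions and Fgfr2), 2 of 14 neuroectoderm genes (Gli2 and Nes) and 6 of 14 trophectoderm genes (Eomes, Tfap2c, Fgfr2, Gata2, Tead4 and Tfap2a). These shares are 13.3%, 12.5%, 14.3% and 42.9%.

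Tfap2c, a transcription factor of trophectoderm and germ cells, was the sole member of these cell fate lists with a region that rose for both lines together. The region 22.6 kb from its start, picked out after its value was seen, had H3K4me3 coverage of 6.98% and 18.5% in KO1, 77.4% and 55.5% in KO2, and 0% and 0% in Control. The difference was 39.6 ± 7.52 points (standard error, limma adjusted p = 0.0484), and both KO2 libraries were above both KO1 libraries. Its neighbour 23.4 kb from the start differed by 44.9 points for both lines and did not pass (limma adjusted p = 0.0621), while for KO2 alone it rose by 70.0 points (limma adjusted p = 0.0260). One region of Sparc also rose for KO2 alone. Beside it, Tfap2c was also a trophectoderm marker without an H3K27ac peak within 1 kb in either Control library, while Cdx2 and Elf5 had none in any library.

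Of 28 BMP, TGF-beta and Id genes 10 were named by 20 regions, Smad3 by 5, Tgfbr2 by 4 and Id4 by 3. Smad6, an inhibitory Smad, was the only one with a region that rose for both lines together, 26.9 kb from its start, with coverage of 52.9% and 47.1% in KO1, 58.9% and 59.1% in KO2, and 25% and 26.1% in Control. That was a difference of 29.0 ± 4.91 points (limma adjusted p = 0.0410). For KO2 alone 4 of the 19 tested regions of this list rose, 1 each of Smad6 and Smad7 and 2 of Tgfbr2. For KO1 none passed. Of 27 Wnt genes 7 were named, led by Tcf7l2 with 5 regions and Tcf15 with 3, and of 21 FGF and MEK feedback genes 8, led by Myc with 3. For both lines together and for KO1 none of their 15 and 13 tested regions passed. For KO2 alone 2 regions of Tcf7l2, a Wnt effector, and 1 of Fzd7, a Wnt receptor, rose and 1 of Myc fell. At the Tcf7l2 region 29.4 kb from the gene's start coverage was 35.5% and 22.8% in KO1, 73.7% and 51.2% in KO2, and 12.9% and 0% in Control. The difference for KO2 was 56.0 points (limma adjusted p = 0.0291). Among 27 Hippo, cytoskeleton and matrix genes 11 were named by 1 region each, and the Itgb5 region, at the start of an integrin subunit, fell (limma adjusted p = 0.0467). Its coverage was 62.6% and 62.2% in KO1, 67.1% and 54.4% in KO2, and 88.8% and 85.9% in Control.

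Of 37 chromatin regulators 11 were named, Jarid2 of Polycomb complex 2 by 5 regions, and of 16 p53 targets 8, Cdkn1a by 3. Of 20 genes of the m6A machinery 7 were named: Zfp217 by 5 regions, the reader Ythdf3 by 3, the reader Igf2bp2 by 2, and Igf2bp1, Mettl16, Wtap and Ythdc2 by 1. The Ythdf3 region lay 57.7 kb from the gene's start. Its H3K4me3 coverage was 28.0% and 27% in KO1, 37.2% and 17.1% in KO2, and 0% and 0% in Control, a difference of 27.3 points that missed the threshold (limma adjusted p = 0.0746). None of the tested regions of these 3 lists passed for both lines together or for KO1, and 1 region each of Igf2bp2 and Zfp217 rose for KO2 alone. Of 14 lipid and lysosome genes 0 were named, although 12 were nearest to some region of the list.

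H3K4me3 libraries had no part in the rule. Gained regions met an H3K4me3 peak more often in the knockout libraries than in the Control libraries, although the knockout H3K4me3 lists were shorter. The share was 75.2% and 74.8% in KO1, 85.3% and 77.8% in KO2, and 60% and 57.8% in Control. Means were 75% ± 0.283 in KO1, 81.5% ± 5.33 in KO2 and 58.9% ± 1.54 in Control (SD, n = 2). All 4 knockout libraries were above both Control libraries. Over the whole list the shares were 80.0% and 77.6% in KO1, 82.5% and 77.2% in KO2, and 75.9% and 74.6% in Control, and in common regions they ran from 95.5% to 97.8%.

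The libraries stood farthest apart away from gene starts. Between genes the share of gained regions with an H3K4me3 peak was 61.1% and 60.7% in KO1, 76.8% and 67.5% in KO2, and 37.1% and 33.1% in Control. In gene bodies it was 71.6% and 70.9% in KO1, 82.9% and 72.2% in KO2, and 54.8% and 52.2% in Control. Near gene starts it was 94.1% and 93.9% in KO1, 97.0% and 94.5% in KO2, and 90.1% and 90.3% in Control. Gained regions with no Control H3K27ac peak within 1 kb had like shares, 76.1% and 75.8% in KO1, 85.8% and 79.1% in KO2, and 58.2% and 56.0% in Control. Every region of the list was a peak in a KO1 library, so the list as a whole is not neutral between genotypes.

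**Figure D3:**
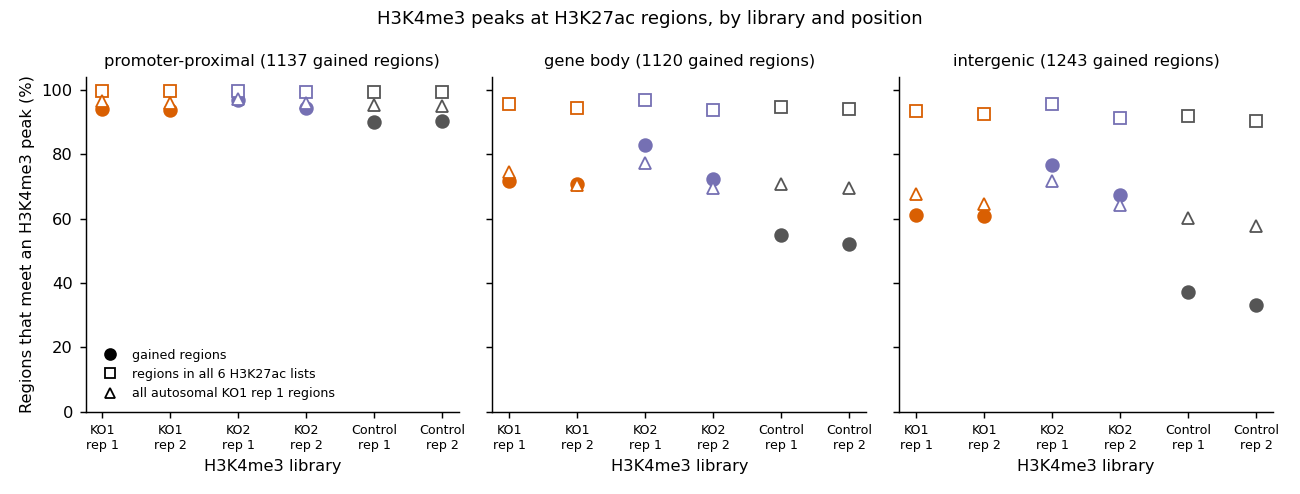
Percentage of regions that meet an H3K4me3 peak in each of the 6 H3K4me3 libraries, by position; filled circles are gained regions, open squares regions in all 6 H3K27ac lists and open triangles all autosomal KO1 replicate 1 regions. Between genes the gained regions stand at 60.7% to 76.8% in the knockout libraries and at 33.1% and 37.1% in Control.

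Region by region, 1575 gained regions (45%) met an H3K4me3 peak in all 6 libraries and 140 in none. A peak in all 4 knockout libraries and in no Control library was found at 203 gained regions (5.80%), against 1.68% of the whole list. A peak in both Control libraries and in no knockout library was found at 6 (0.171%), against 0.452% of the whole list.

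The amount of H3K4me3 was compared as coverage, the percentage of a region and 1 kb on each side that H3K4me3 peaks cover, in a limma fit over 36004 regions of the whole list. Of the members 3284 passed the filter of 5% mean coverage and 216 did not. For both lines together against Control, 141 gained regions rose (4.29%) and 19 fell (0.579%), where over all regions tested 1.58% rose and 1.62% fell at an adjusted p of 0.05. The median difference was 6.61 points in gained regions, -0.06 in all regions and -0.85 in common regions. All 4 knockout libraries were above both Control libraries at 870 of the 3284 members (26.5%), against 13.5% of all regions, and below both at 231 (7.03%), against 13.9%. These calls need all 6 libraries: with any 1 library left out, no gained region passed the threshold in either direction. The median difference of the members stayed between 4.77 and 8.19 points in those fits, and that of all regions between -1.20 and 1.04 points. Coverage of the region alone, without the 1 kb on each side, also gave 0 in either direction with limma, among the members and over all regions. The median difference was then 24.5 points in the members and 3.09 points in all regions.

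The lines were not called alike. KO1 alone against Control gave 0 higher and 0 lower members (background 0% in each direction), with 527 higher and 163 lower of 3284 members at an unadjusted p under 0.05, against 2999 and 3625 of all 36004 regions. Quantile normalization called 63 higher and 12 lower members for KO1, against 268 and 338 of all regions. Windows of 2.5 kb on each side called 168 and 63 members, against 798 and 1634 of all regions. KO2 alone against Control gave 366 higher (11.1%, against 4.54% of all regions) and 30 lower (0.914%, against 2.9%). The direct comparison of KO2 with KO1 gave 38 higher members (1.16%, against 0.964%) and 7 lower (0.213%, against 0.358%), close to the background. Median differences from Control were 3.62 points in KO1 and 8.08 points in KO2.

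Of the 141 that rose, 70 lay between genes, 57 in gene bodies and 14 near gene starts, from 1143, 1030 and 1111 regions tested. Of the 19 that fell, 4 lay between genes, 10 in gene bodies and 5 near starts. The median difference was 12.9 points between genes, 7.72 in gene bodies and 0.53 near starts. The 141 regions named 107 genes and formed 112 stretches more than 2 kb apart, so some neighbours share their H3K4me3 values. Of the 141 regions, 45 had no Control H3K27ac peak within 1 kb. In 52 of the 141 neither Control library had any H3K4me3 in the window. The 5% filter took the mean over all 6 libraries, so these 52 passed it through knockout libraries alone. Their equal Control values added no spread to the fit, so their adjusted p is to be read with this limit. Regions of Epcam, Fads1, Tob1, Ctif and Tfap2c that rose for both lines together are among them.

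**Figure D4:**
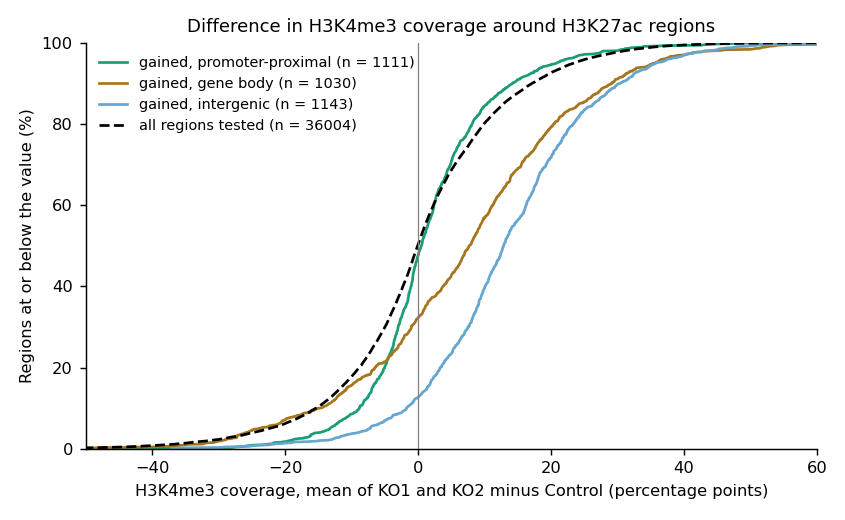
Cumulative percentage of regions by their difference in H3K4me3 coverage, mean of KO1 and KO2 minus Control, in percentage points. Gained regions between genes (median 12.9) and in gene bodies (median 7.72) lie to the right of all regions tested (median -0.06), and those near gene starts (median 0.53) lie close to them.

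The largest rise past the threshold was inside Pkd1l2, a polycystin-like membrane protein, in a region named by the start of Gcsh, of the glycine cleavage system. In this region, at chromosome 8, 117017367 to 117018224, coverage was 74.2% and 81.8% in KO1, 88.4% and 63.5% in KO2, and 2.17% and 11.1% in Control. Every knockout library was above 60%, and the difference was 70.3 ± 8.01 points (standard error, limma adjusted p = 0.0345). Ddc encodes the decarboxylase that makes dopamine and serotonin. The region near Ddc (chromosome 11, 11905358 to 11905584) had 54.7% and 59.6% in KO1, 75.2% and 84.0% in KO2, and 0% and 9.38% in Control, a difference of 63.7 ± 5.72 points (limma adjusted p = 0.0345).

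Tob1, an antiproliferative protein that recruits deadenylases to mRNA, named a region 52.0 kb from its start (chromosome 11, 94159281 to 94159478). Coverage there was 37.1% and 50.7% in KO1, 75.3% and 91.2% in KO2, and 0% and 0% in Control. The difference of both lines from Control was 63.6 ± 6.91 points (limma adjusted p = 0.0345). KO1 minus Control, 43.9 points, missed the threshold (limma adjusted p = 0.0760). KO2 minus KO1, 39.3 points, also missed it (limma adjusted p = 0.0650), although both KO2 libraries were above both KO1 libraries. Lyzl4, a lysozyme-like protein of the testis, held 2 regions in its gene body whose windows overlap. The wider one (chromosome 9, 121614674 to 121615483) had 62.6% and 32.1% in KO1, 86.4% and 80.4% in KO2, and 5.34% and 0% in Control. The Cuedc1 region (chromosome 11, 88139260 to 88139829) had 75.9% and 63.5% in KO1, 100% and 95.6% in KO2, and 23.8% and 21.9% in Control. A second region inside Pkd1l2, also named by Gcsh, differed by 60.8 points. The last of the 8, named by Gm52612, had 55.3% and 40.9% in KO1, 100% and 100% in KO2, and 27.4% and 0% in Control.

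Of the widest members, Epcam and Fads1 rose. At the Epcam region H3K4me3 coverage was 55.4% and 52.3% in KO1, 49.6% and 41.4% in KO2, and 0% and 0% in Control, a difference of 49.7 ± 5.15 points (limma adjusted p = 0.0345). At the Fads1 region (chromosome 19, 10144166 to 10145695), 37.2 kb from the start of this fatty acid desaturase, coverage was 24.5% and 37.8% in KO1, 37.1% and 35.1% in KO2, and 0% and 0% in Control. That was a difference of 33.6 ± 5.57 points (limma adjusted p = 0.0400). The Fads1 region was 6040 bp from a Control H3K27ac peak, and no Control H3K4me3 peak reached its window. The wide regions near Clhc1, Ren1 and Stk3 differed by 21.7, 23.7 and 37.4 points for both lines and did not pass, and Mok differed by -5.12 points. For KO2 alone the Ren1 region rose by 35.6 points (limma adjusted p = 0.0342).

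The largest fall was in Alpl, the tissue-nonspecific alkaline phosphatase used as a marker of embryonic stem cells (chromosome 4, 137782082 to 137782231). Coverage was 21.3% and 22.9% in KO1, 9.86% and 8.60% in KO2, and 82.5% and 67.6% in Control, a difference of -59.4 ± 5.95 points (limma adjusted p = 0.0345). All 4 knockout libraries were below 25%. At Cds2, a CDP-diacylglycerol synthase, the region near the start had 42.8% and 19% in KO1, 24.9% and 8.37% in KO2, and 71.1% and 70.7% in Control. Its H3K27ac fold in KO1 replicate 1 was 2.75, at the 0.448 percentile of that list. Rreb1, a zinc finger factor downstream of Ras and MAPK signalling, had 43.6% and 43.0% in KO1, 32.0% and 19.2% in KO2, and 82.7% and 71.2% in Control.

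The other falls of the 8 were at Dcbld1, Sgk1, Atf7ip, Tns3 and a region inside Cdyl named by Rpp40, with differences of -47.1, -37.0, -35.8, -34.9 and -36.4 points. Atf7ip encodes a partner of the H3K9 methyltransferase Setdb1, and Cdyl a chromodomain corepressor. The Atf7ip region itself met no H3K4me3 peak in any library. Its window had 18.8% and 12% in KO1, 5.06% and 19.3% in KO2, and 51.7% and 47.4% in Control.

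**Figure D5:**
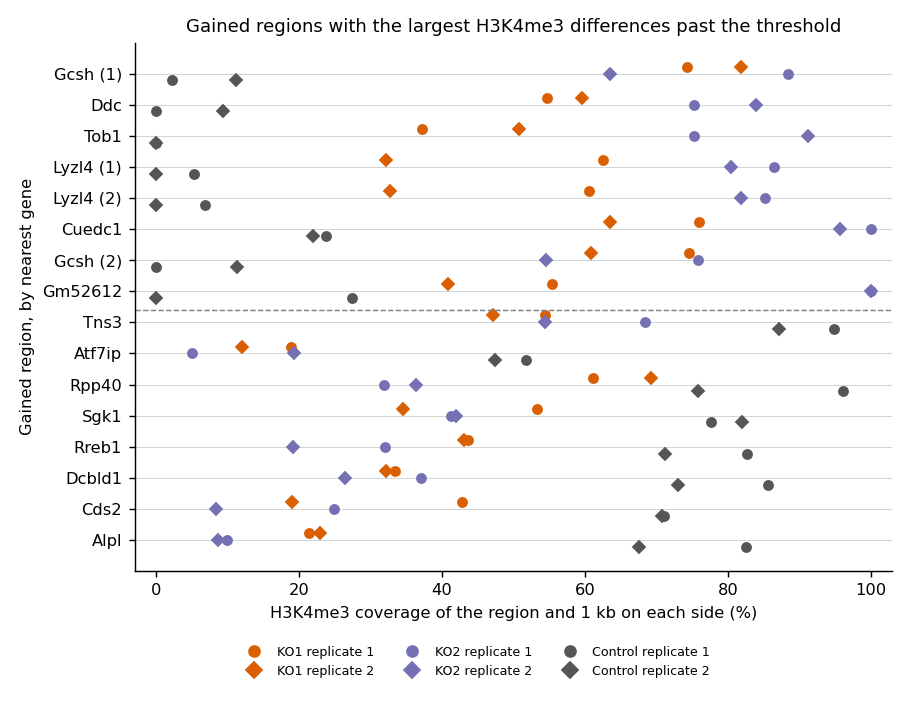
H3K4me3 coverage (percent of the region and 1 kb on each side) in each library for the 8 largest rises, above the dashed line, and the 8 largest falls, below it, among gained regions past the threshold; circles are replicate 1 and diamonds replicate 2, coloured by genotype. In the rises every knockout library lies above both Control libraries and in the falls below them, and the regions were chosen for these differences.

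At the starts of the nearest genes, more genes fell than rose in H3K4me3 as deposited, and the reverse after quantile normalization. Coverage of the start with 2 kb on each side was fitted over 13104 autosomal genes, 2222 of them nearest to a gained region. For both lines together 48 of the nearest genes rose (2.16%, against 0.74% of all genes tested) and 84 fell (3.78%, against 5.6%). The median difference was -1.38 points in the nearest genes and -2.41 points in all genes. After quantile normalization the split was 96 higher and 35 lower, so its direction depends on the scaling, against 237 and 315 of all genes tested. For KO1 alone 10 rose (0.450%, against 0.13%) and 25 fell (1.13%, against 1.62%), or 22 and 14 after quantile normalization, against 66 and 107 of all genes. For KO2 alone 67 rose (3.02%, against 1.31%) and 105 fell (4.73%, against 6.03%), or 151 and 48 after quantile normalization, against 413 and 399 of all genes. Without KO2 replicate 2 the median difference for KO2 was 0.187 points in the nearest genes and -1.06 points in all genes. With any 1 library left out, fewer of the nearest genes passed in each direction for both lines together than with all 6. The median difference then lay between -2.02 and -0.58 points in the nearest genes and between -3.18 and -1.71 points in all genes. Without Control replicate 1 none of the nearest genes passed in either direction.

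Among genes whose start lay within 1 kb of a gained region, the 6 largest rises were at Pgpep1l, Rpl10l, Tnip1, Pttg1, Lrrn2 and Ldhb. Pttg1 encodes securin, the inhibitor of separase. Its coverage was 36.8% and 34.0% in KO1, 44.1% and 31.3% in KO2, and 8.72% and 14.0% in Control, a difference of 25.2 ± 3.89 points (limma adjusted p = 0.0170). All 4 knockout libraries exceeded both Control libraries, and its promoter is shown above. At Lrrn2, a leucine-rich repeat membrane protein whose promoter is also shown, coverage was 88.9% and 79.4% in KO1, 55.2% and 42.0% in KO2, and 36.7% and 46.1% in Control. There KO1 was highest, and KO2 overlapped Control. Ldhb, a lactate dehydrogenase subunit, showed the reverse, with 51.9% and 43.5% in KO1, 88.5% and 74.5% in KO2, and 43.9% and 36.3% in Control.

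Rpl10l, a testis copy of the ribosomal protein gene Rpl10, had 53.9% and 52.1% in KO1, 40.3% and 33.6% in KO2, and 14.6% and 19.6% in Control. Pgpep1l differed by 45.7 points and Tnip1, an inhibitor of NF-kappaB signalling, by 25.9 points. The 6 largest falls were at Cds2, Pcolce, Rnf115, Ppa1, Wdr86 and Tuba4a. The start of Cds2 had 46.3% and 29.4% in KO1, 33.3% and 14.3% in KO2, and 76.8% and 75.9% in Control, a difference of -45.5 ± 6.32 points (limma adjusted p = 0.0136). Pcolce, an enhancer of procollagen processing, differed by -28.9 points, and the other 4 by -18.8 to -19.4 points. At each of these 6 gene starts all 4 knockout libraries were below both Control libraries.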

How the data were processed

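H3K27ac and H3K4me3 were measured by chromatin immunoprecipitation and sequencing, with 2 libraries per genotype and mark. The authors deposited peak lists on mm10, and the submitters' processing notes name CASAVA, Trimmomatic 0.38, Bowtie 1.2.2 and MACS2. Spike-in chromatin is in the labels' protocols. No source used here says whether it or the input entered peak calling. The deposited lists hold, per peak, a fold enrichment (ratio) and −log10 p and −log10 q values from the authors' caller, 1 list per library. Read depth is unknown, so no counting interval is given.

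The members and gene lists were chosen with earlier results of these data known. From the lists, peak overlaps of at least 1 base, distances to RefSeq genes and H3K4me3 coverage were computed (Python 3.11.15). Coverage was tested with limma 3.58.1 in R 4.3.3 over the whole KO1 replicate 1 list, or all gene starts, with all 6 libraries, a filter of 5% mean coverage and Benjamini-Hochberg adjustment at 0.05. The code was tested on simulated data. A start was given for 16457 of 20665 coding genes. Regions are named by the nearest protein-coding gene. Those named are the 12 with the highest lowest rank of fold, the 6 widest, the 8 genes with most regions, the 8 largest rises and 8 largest falls, up to 4 per gene list, the nearest and farthest from Control peaks, and up to 6 gene starts in each direction. Some items that this rule names are not reported here. Others are said to be chosen after their values were seen, as were the risers and fallers at Akap12, Ctif and Itgb5. Alternatives changed the windows, filter, normalization, peak numbers, replicate block and libraries used.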

Additional observations from a re-analysis of the deposited data

Results flagged for a closer look

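KO2 and KO1 differed from each other, by the limma test of the difference itself, at 38 gained regions with more and 7 with less H3K4me3 coverage in KO2. These are 1.16% and 0.213% of the members tested, close to the 0.964% and 0.358% of all regions. Of the 38, 19 lay between genes, 15 in gene bodies and 4 near gene starts. The examples were picked after their values were seen. Around a region near Rybp, of Polycomb complexes, coverage was 87.2% and 87.7% in KO2 and 0% and 29.2% in KO1, beside 0% and 0% in Control. In the body of Ptprj, a receptor tyrosine phosphatase, it was 0% and 5.92% in KO2 and 63.2% and 51.1% in KO1, beside 5.16% and 0% in Control. Near Nme1, a nucleoside diphosphate kinase, it was 0% and 0% in KO2 and 58.6% and 37.3% in KO1, beside 0% and 0% in Control. With any 1 library left out, no member passed the threshold in either direction. The median difference of KO2 from KO1 then lay between 0.43 and 6.23 points in the members and between -1.44 and 3.21 points in all regions.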

How the results depend on the processing

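The number of gained regions was 1672 with no Control peak within 1 kb, 1627 with a −log10 q of at least 5, 1149 with equal peak numbers, 558 with equal numbers and no Control peak within 1 kb, and 3786 to 7317 with 1 library left out. The promoter-proximal share was 27% within 1 kb, 39.5% within 5 kb and 39.9% with all genes of the table. The share meeting an H3K4me3 peak in KO1, KO2 and Control was 90.4%, 93.6% and 76.7% within 1 kb, 66%, 74.1% and 52.0% for at least 50% covered, and 65.6%, 74.7% and 51.5% for a −log10 q of at least 5. It was 73.0% in KO1 and 53.3% in Control with equal peak numbers, and 76.0% and 57.1% without Control H3K27ac within 1 kb. In the 1060 regions also gained with equal H3K27ac peak numbers it was 87.4%, 94.9% and 72.9%. These 2 subsets and the 558 were added after seeing the data.

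Members higher and lower in H3K4me3 for both lines, with 2.5 kb on each side, were 458 and 135 (137 of the 141 among them), for KO1 168 and 63, for KO2 640 and 167, and for KO2 minus KO1 183 and 39. Over all regions that setting called 2193 and 3666 for both lines and 798 and 1634 for KO1. It called 3261 and 4079 for KO2, and 1346 and 739 for KO2 minus KO1. Quantile normalization gave 197 higher and 33 lower members for both lines and 63 and 12 for KO1. It gave 354 and 55 for KO2, and 165 and 68 for KO2 minus KO1. Over all regions it gave 923 and 995, 268 and 338, 1842 and 1611, and 1174 and 902 in the same order. For the region itself the members were 0 and 0 for both lines, 108 and 5 for KO2, and 37 and 12 for KO2 minus KO1. Over all regions these were 0 and 0, 392 and 130, and 210 and 67. Equal peak numbers gave 167 higher and 11 lower members for both lines, against 706 and 486 of all regions. A filter of 20% gave 28 higher and 4 lower members for KO2 minus KO1, against 266 and 108 of all regions. Among the 1672 regions without Control H3K27ac within 1 kb, both lines had 45 higher and 5 lower. Among the 1060 regions also gained with equal numbers they had 55 and 1. These set sizes are before the 5% filter. Over all 36004 regions tested, 568 were higher (1.58%) and 583 lower (1.62%). Every fit without 1 library gave 0 and 0. The cause was not tested. At gene starts quantile normalization gave 96 and 35 for both lines, 22 and 14 for KO1, and 151 and 48 for KO2. Without 1 library these were 0 to 20 and 0 to 82, 0 to 5 and 0 to 7, and 0 to 44 and 0 to 76.

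With the replicate number as a block, both lines had 77 higher and 9 lower members, against 273 and 353 of all regions. KO2 minus KO1 then had 0 and 0, among the members and over all regions. The correlations of same-numbered libraries' deviations were 0.0252 for KO1 with KO2, -0.00879 for KO1 with Control and 0.0351 for KO2 with Control. Such values cannot tell whether same-numbered libraries shared a culture or a batch, which was not tested. At gene starts the excess of lower calls turned to one of higher calls under quantile normalization, where the median difference for both lines was 2.20 points. Without KO2 replicate 2 the median difference of the nearest genes was 0.187 points for KO2, against -1.06 in all genes. For both lines it was then -0.581 points, against -1.71 in all genes.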
